A study of Mus musculus with 18 samples.

Results

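The miR-99/100 and miR-125 families were followed through the eyes, lungs and testicles of male mice. The members were 10 mature miRNAs chosen by name: mmu-miR-99a-5p, mmu-miR-99a-3p, mmu-miR-99b-5p, mmu-miR-99b-3p, mmu-miR-100-5p, mmu-miR-100-3p, mmu-miR-125a-5p, mmu-miR-125a-3p, mmu-miR-125b-5p and mmu-miR-125b-1-3p, written below without the species prefix mmu. All 10 were found among the 1431 miRNA names of the deposited tables, and all 10 passed the filter on low counts in every comparison. The study sequenced small RNA from left and right organs of C57BL/6 mice aged 8 to 12 weeks, with no treatment or mutation named. Its 18 libraries form 6 groups of 3: left and right eye, left and right lung, and left and right testicle. The labels give neither the mouse behind each library nor whether the left and right organ of a number came from the same mouse, so the p-values below measure the spread between these libraries, which may be partly technical. If both organs of a number came from the same mouse, the 6 libraries of an organ stand for 3 mice.

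A miRNA is cut from a hairpin precursor, whose 5′ side gives the 5p arm and whose 3′ side gives the 3p arm. It silences mRNAs chiefly through its seed, the bases near its 5′ end that pair with the target. The miR-125 family descends from the same ancestral gene as lin-4 of Caenorhabditis elegans, and in many animals miR-100, let-7 and miR-125 lie next to each other in the genome as a cluster. Members of miR-99/100 are known to repress the growth kinase mTOR, and miR-125 is known to repress Lin28 and p53 in mammalian cells.

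The mature sequences below carry the results because they show which members share a seed and which members a short read can tell apart. They are RefSeq sequences on build GRCm38.p6, 5′ to 3′, with the seed (bases 2 to 8) in capitals.
mmu-miR-99a-5p: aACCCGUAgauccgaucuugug
mmu-miR-100-5p: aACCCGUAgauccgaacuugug
mmu-miR-99b-5p: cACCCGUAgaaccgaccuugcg
mmu-miR-125a-5p: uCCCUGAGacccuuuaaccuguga
mmu-miR-125b-5p: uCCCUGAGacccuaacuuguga
mmu-miR-100-3p: aCAAGCUUgugucuauagguau
mmu-miR-125b-1-3p: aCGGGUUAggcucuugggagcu
mmu-miR-125b-2-3p: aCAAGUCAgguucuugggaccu
The 3 miR-99/100 5p arms share 1 seed and both miR-125 5p arms share another. Counted from the 5′ end, miR-100-5p differs from miR-99a-5p by the single substitution U16A, so how reads are divided between them depends on how many mismatches the counting allowed, a setting the labels do not state. The arm miR-99b-5p differs from miR-99a-5p by 4 substitutions, A1C, U11A, U16C and U21C. The miR-125 5p arms share their first 13 bases. The sequence of miR-125b-5p is encoded at 2 loci, so its count pools them, whereas miR-125b-1-3p and miR-125b-2-3p each come from a single locus.

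The members lie in 3 clusters, each with a let-7 gene between a miR-99/100 gene and a miR-125 gene. On chromosome 17, miR-99b-5p (chr17:17830194-17830215), let-7e and miR-125a-5p (chr17:17830817-17830840) lie on the plus strand within 683 bases. The annotation of that build places miR-99b and let-7e in an intron, and miR-125a in an exon, of the protein-coding gene Spaca6 on the same strand. On chromosome 16, miR-99a-5p (chr16:77598940-77598961), let-7c-1 and the second miR-125b locus (chr16:77646279-77646300) lie in introns of the long non-coding gene Mir99ahg, and 46540 bases separate the mature arms of let-7c-1 and miR-125b-2. On chromosome 9, miR-100-5p (chr9:41531437-41531458), let-7a-2 and the first miR-125b locus (chr9:41581940-41581961) lie in introns of 3110039I08Rik, a transcript not annotated as coding, with 45142 bases between let-7a-2 and miR-125b-1. The miR-100 hairpin also overlaps an exon of Gm48742 on the opposite strand, and whether counting used strand is not given.

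Total miRNA counts per library were 2451484 to 2680204 in eyes, 2538402 to 2790471 in lungs and 952608 to 1893132 in testicles. At an equal CPM, a rare 3p arm therefore has fewer counts and more counting error in testicles. Counts were tested with edgeR on TMM-scaled libraries, and levels below are TMM-scaled counts-per-million values (CPM) unless another scale is named. The organ labels were checked against known organ miRNAs, of which only some are given here. The retinal miR-183-5p had 37996 to 52912 CPM in eyes, 716 to 3267 in lungs and 564 to 1206 in testicles. The lung-rich miR-10a-5p had 58.5 to 148 CPM in eyes, 14149 to 19452 in lungs and 807 to 1713 in testicles. Testicular miR-202-5p stayed at 3.23 to 23.8 CPM in eyes and 8.88 to 91.9 in lungs, against 38995 to 48730 in testicles, but the testicular miR-871-3p ranged over 25.8 to 23632 CPM among the testicle libraries. In whole organs, fewer cells of a type and less of a miRNA per cell cannot be told apart.

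The organs differed so widely that the scaling between them is itself uncertain. Over the 642 miRNAs tested, the median log2 fold change was 0.00 for eye over lung, 0.05 for eye over testicle and -0.90 for lung over testicle. The TMM reference library was right eye 3. With left testicle 1 as the reference the median was -0.51 for eye over lung. With left lung 1 it was 0.56 for eye over testicle and -0.31 for lung over testicle. Leaving out a library could also move the scale of all miRNAs. Without right eye 2 the median was -0.54 for eye over lung, and without left lung 1 it was -0.18 for eye over testicle. Values of a member with a library left out include such shifts. Level differences are therefore to be read beside their values under other scalings, which the plot of log2 fold changes shows for all members. Ratios of 2 counts within a library, and shares of a library's total, do not depend on TMM scaling.

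In eye against lung, 3 of the 10 members passed an adjusted p of 0.05 in edgeR (1 higher, 2 lower), where 59.8% of all 642 miRNAs did (35.4% higher, 24.5% lower). In eye against testicle 5 of 10 passed (2 higher, 3 lower), against 79.3% of all (40.2% higher, 39.1% lower). In lung against testicle 7 of 10 passed (3 higher, 4 lower), against 76.5% of all (27.4% higher, 49.1% lower). At this scaling the members were called no more often than all tested miRNAs, and the median log2 fold changes over the 10 were -0.16, -0.11 and -0.06 in the same order of comparisons. Other scalings moved these splits. With left testicle 1 as reference, eye against lung gave 1 higher and 8 lower, 9 of 10 where 71.3% of all miRNAs were called, and eye against testicle 0 higher and 3 lower where 78.8% were called. With left lung 1 as reference, eye against testicle gave 3 higher and 2 lower (84.1% of all called) and lung against testicle 5 higher and 2 lower (77.9% of all called).

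**Figure D1:**
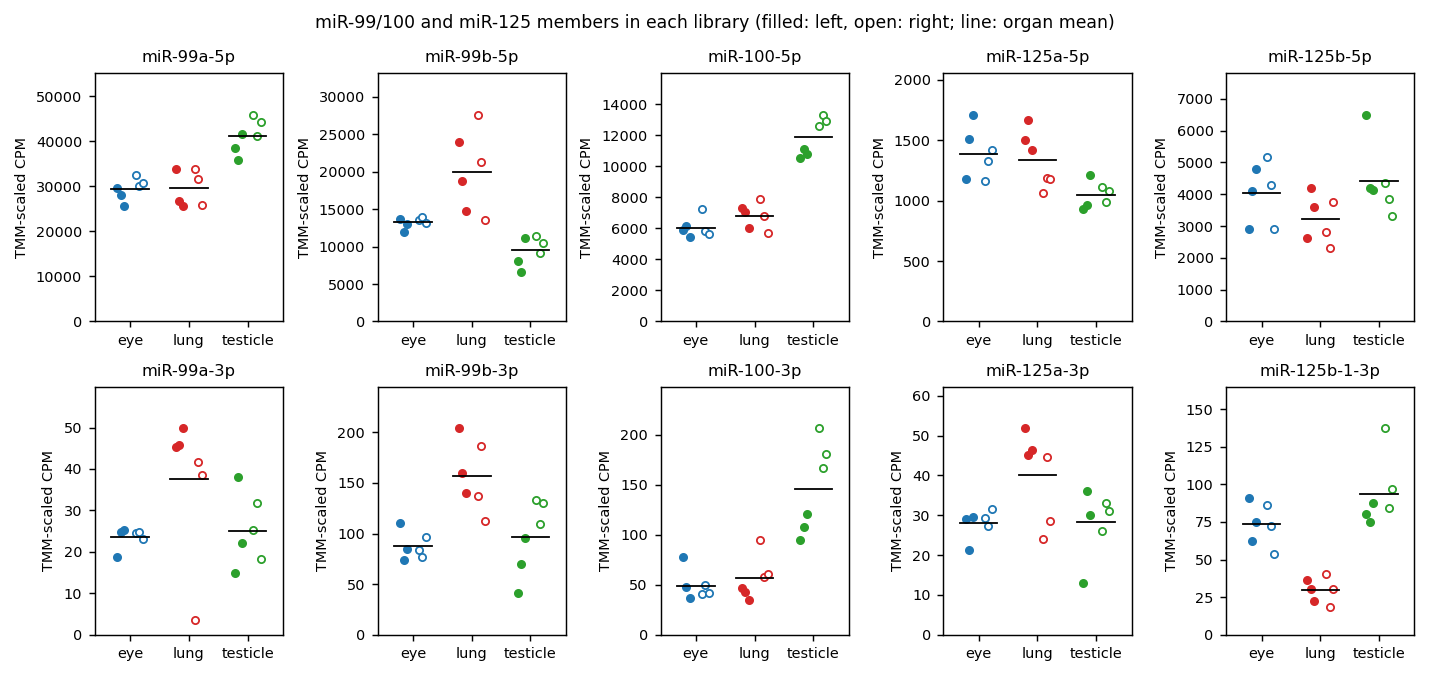
TMM-scaled CPM of each of the 10 members (vertical axes, linear, from 0) in the 18 libraries by organ, filled for left and open for right, with a line at the mean of the 6 libraries of an organ. The lung points of miR-125b-1-3p lie between 18.4 and 40.2 CPM, below all eye and testicle points, and the testicle points of miR-100-5p lie above all others.

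The abundant 5p arms of miR-99/100 had different organ profiles although they share a seed. The arm miR-99b-5p was highest in lung and lowest in testicle, with lung apart from both other organs under every setting tried. Its lowest, median and highest levels were 11969, 13347 and 14010.3 CPM in eyes, 13579, 20050 and 27639 CPM in lungs and 6581, 9839.7 and 11390.4 CPM in testicles. Eye and lung ranges met only at their edges, and no testicle library reached an eye or lung library. The log2 fold change was -0.59 ± 0.18 (SE, 6 libraries per organ, adjusted p = 0.00804) for eye over lung and 1.08 ± 0.18 (adjusted p = 4.14e-05) for lung over testicle, and both passed in the same direction in all 27 alternative settings (other scalings, filters and tools, the library number as a block, the 2 organs alone, and each library left out). Eye over testicle was 0.49 ± 0.18 (adjusted p = 0.0200) and passed in 14 of the 27. It no longer passed, at 0.27 to 0.45, without any one of right eye 2 and 3, left and right lung 1 and 2, left testicle 2 or right testicle 1, 2 and 3, nor with left testicle 1 as reference (0.33), no filter (0.43) or the 2 organs alone (0.20). With left lung 1 as reference that difference was 0.96, and with library sizes alone 0.77. Eye over lung became -1.34 without right eye 2 and -1.29 with left testicle 1 as reference, and lung over testicle 1.72 and, with left lung 1 as reference, 1.64.

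The partner arm miR-99b-3p followed part of this profile. It had 73.4, 84.6 and 110.1 CPM (lowest, median, highest) in eyes, 113, 150.1 and 204 CPM in lungs and 40.8, 102 and 133 CPM in testicles. All lung libraries lay above all eye libraries, while testicles overlapped both on this scale. On unscaled CPM testicles and lungs did not overlap. Eye over lung was -0.83 ± 0.21 on the log2 scale (adjusted p = 0.00249) and lung over testicle was 0.76 ± 0.21 (adjusted p = 0.00417), each passing in all 27 settings, with -1.52 and 1.39 without right eye 2 and, with left testicle 1 as reference, -1.51 and 1.29. The lung over testicle value was 1.33 with left lung 1 and 1.15 with library sizes alone. Between eye and testicle it was -0.07 ± 0.21 and did not pass. The 5p over 3p log2 ratio of miR-99b passed between no organs with all libraries, but eye minus lung passed without right lung 1 (0.40), and eye minus testicle (0.74) and lung minus testicle (0.47) passed without left testicle 1.

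Both arms of miR-100, the member nearest to miR-99a in sequence, were highest in testicle. The 5p arm had 5429, 5851 and 7246 CPM in eyes, 5672, 6932 and 7897 CPM in lungs and 10523.6, 11817.5 and 13319.5 CPM in testicles (lowest, median, highest). Every testicle library lay above every eye and lung library, and eyes and lungs overlapped. The log2 fold change for eye over testicle was -0.97 ± 0.12 (adjusted p = 1.59e-06), which passed in all 27 settings and was -0.48 with left lung 1 as reference. Lung over testicle was -0.80 ± 0.12 (adjusted p = 1.67e-05). That value was -0.42 with library sizes alone and -0.41 with the 2 organs alone, and did not pass with left lung 1 (-0.22) or left testicle 1 (-0.27) as reference, nor without right eye 2 (-0.17).

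The 3p arm of miR-100 had 36.6, 44.8 and 78.2 CPM in eyes, 35.2, 51.9 and 94.97 CPM in lungs and 94.4, 144 and 207 CPM in testicles. Only the highest lung library, right lung 1, reached the testicle range. Log2 fold changes were -1.53 ± 0.21 for eye over testicle (adjusted p = 3.96e-06) and -1.37 ± 0.21 for lung over testicle (adjusted p = 1.38e-05), each passing in all 27 settings, and the lung value was -0.74 without right eye 2 and -0.80 and -0.84 with left lung 1 and left testicle 1 as reference. Eye over lung was -0.17 ± 0.12 for the 5p arm and -0.15 ± 0.20 for the 3p arm, and neither passed. In other settings eye was called lower than lung in 12 of 27 for the 5p arm, at -0.89 without right eye 2, -0.87 with left testicle 1 as reference and -0.40 to -0.29 in the rest: with RLE, library sizes alone or DESeq2, and without right eye 3, left or right lung 1 or 2, or right testicle 1 or 3. The 3p arm was called in 2, at -0.93 without right eye 2 and -0.85 with left testicle 1 as reference. The 5p over 3p log2 ratio was 0.58 higher in eye and 0.58 higher in lung than in testicle, which did not pass (adjusted p = 0.0708 each, exact permutation tests). It passed for eye without left eye 1 (0.73) or left testicle 1 (0.66), and for lung without right lung 1 (0.70).

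The most abundant member, miR-99a-5p, shifted with the scaling. It had 25732, 29895 and 32500.1 CPM in eyes, 25582, 29156 and 33956 CPM in lungs and 35987, 41436 and 45974 CPM in testicles. Testicles lay above both other organs on this scale and eyes and lungs overlapped. The log2 fold change was -0.48 ± 0.11 for eye over testicle (adjusted p = 0.000737) and -0.48 ± 0.11 for lung over testicle (adjusted p = 0.000939), and -0.01 ± 0.11 for eye over lung, which was called at -0.70 with left testicle 1 as reference and at -0.73 without right eye 2. For eye over testicle, library sizes alone gave -0.22 and the 2 organs alone -0.77. For lung over testicle, RLE and DESeq2 gave -0.23, and library sizes alone and the 2 organs alone each -0.09. With left lung 1 as reference the eye and lung differences from testicle were 0.00 and 0.10, and without right eye 2 the lung difference was 0.16, so neither direction was fixed across scalings. Lung over testicle kept its call in 19 of 27 settings and eye over testicle in 26. As unscaled CPM of the library total, miR-99a-5p averaged 30426 ± 995 in eyes, 33126 ± 2010 in lungs and 35365 ± 1641 in testicles (SD, 6 libraries each).

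Ratios within a library show the change of balance inside the family without any scaling. The count of miR-99b-5p over that of miR-99a-5p was 0.418, 0.445 and 0.505 (lowest, median, highest) in eyes, 0.523, 0.689 and 0.815 in lungs and 0.183, 0.230 and 0.267 in testicles. No library of an organ fell within the range of another organ. The difference in mean log2 ratio was -0.55 for eye minus lung, 0.99 for eye minus testicle and 1.54 for lung minus testicle, each with an adjusted p of 0.0139 in an exact two-sided permutation test, whose smallest unadjusted p with 6 against 6 libraries is 0.00216. Each of the 3 passed in all 19 alternatives tried for ratios (1 count added in place of 0.5, and each library left out).

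The count of miR-99a-5p was 4.49, 4.89 and 5.49 times that of miR-100-5p in eyes, 3.78, 4.44 and 4.65 times in lungs and 3.10, 3.54 and 3.85 times in testicles. Eyes and testicles did not overlap. The log2 ratio differed by 0.49 for eye minus testicle (adjusted p = 0.0139, exact permutation test) and by 0.32 for lung minus testicle (adjusted p = 0.0177, exact permutation test), and both passed in all 19 alternatives. Eye minus lung was 0.17 and did not pass (adjusted p = 0.0708, exact permutation test), though it passed without right eye 1 (0.20). Since these arms differ by 1 base, the level of this ratio depends on the authors' counting.

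**Figure D2:**
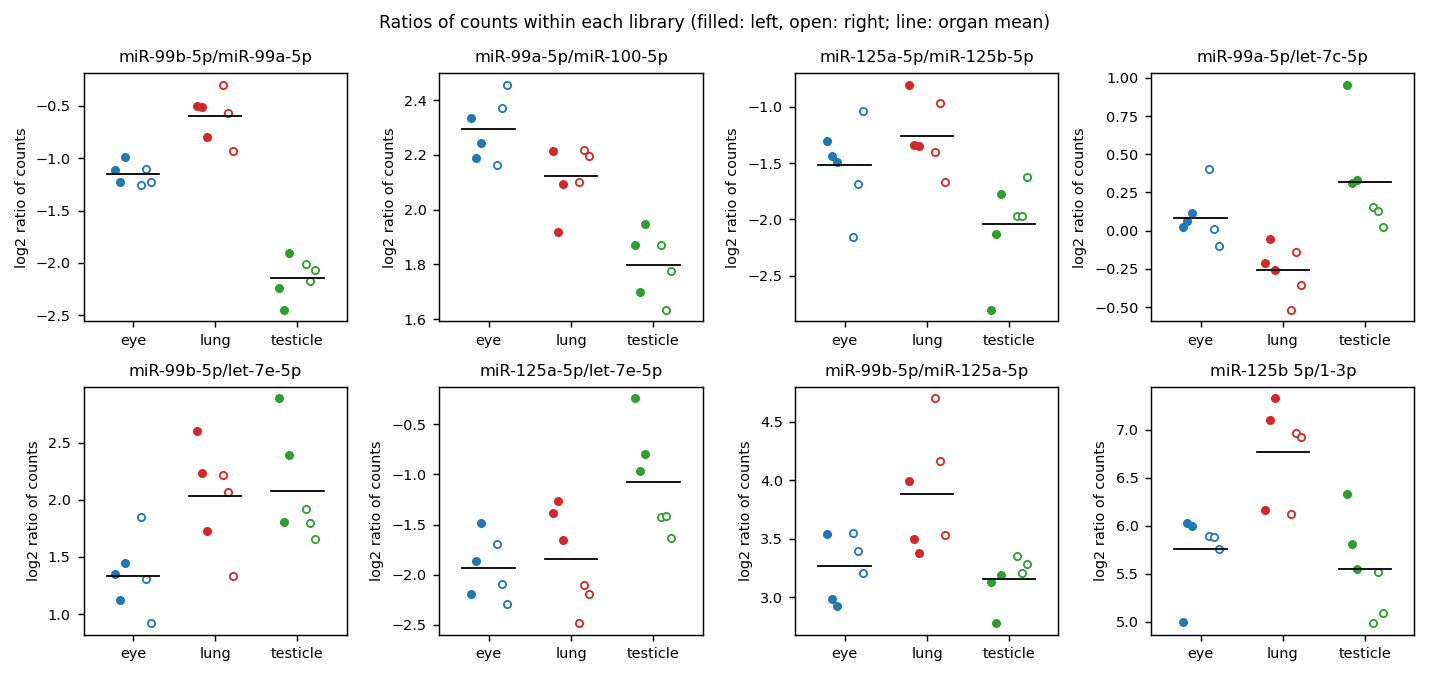
Within-library log2 ratios of counts (vertical axes) for 8 pairs of miRNAs in the 18 libraries by organ, filled for left and open for right, with a line at the organ mean. For miR-99b-5p over miR-99a-5p the 3 organs form separate bands, with means of -1.15 in eye, -0.60 in lung and -2.14 in testicle.

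Summed, the 3 miR-99/100 5p arms held 5.04% ± 0.210 of all miRNA counts in eyes, 6.29% ± 0.642 in lungs and 5.36% ± 0.183 in testicles (SD, 6 libraries each). Every lung library lay above every eye library. Eye minus lung was -1.26 percentage points (adjusted p = 0.0130, exact permutation test). Eye minus testicle was -0.32 points (adjusted p = 0.0390, exact permutation test) and lung minus testicle 0.93 points (adjusted p = 0.0325, exact permutation test). Unlike the first, these 2 did not withstand leaving out libraries: eye minus testicle no longer passed, at -0.34 to -0.26 points, without any one of left eye 1 and 2, right eye 2 and 3, left testicle 1, 2 and 3 or right testicle 2 and 3, and lung minus testicle, at 0.88 to 0.98 points, without any one testicle library. The miR-125 5p arms summed to 0.565% ± 0.132 in eyes, 0.518% ± 0.135 in lungs and 0.477% ± 0.138 in testicles, and none of their 3 comparisons passed (adjusted p = 0.593, 0.422 and 0.593, exact permutation tests).

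The make-up of the 10-member sum changed mainly through miR-99b-5p. It formed 24.4% of that sum in eyes, 32.2% in lungs and 13.8% in testicles. The arm miR-99a-5p formed 54.1%, 48.5% and 60.3% in the same order, and miR-100-5p 11.1%, 11.1% and 17.4%. All 5 of the 3p arms together made up 0.482% in eyes, 0.528% in lungs and 0.564% in testicles.

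**Figure D3:**
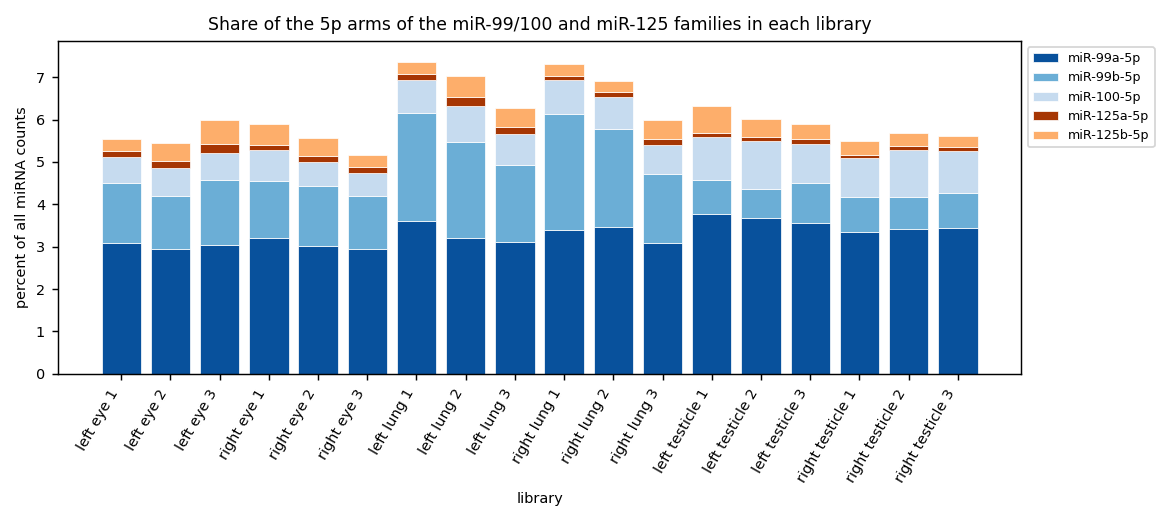
Share of all miRNA counts (percent, from 0) taken by the 5 listed 5p arms in each of the 18 libraries, stacked. The miR-99b-5p band is 1.26% to 1.54% of counts in eye libraries, 1.62% to 2.76% in lung libraries and 0.67% to 0.95% in testicle libraries.

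For miR-125b the calls between organs were in the rare 3p arms, and the abundant 5p arm was not called. The 5p arm had 2910.5, 4189 and 5169 CPM in eyes, 2316, 3209.6 and 4202 CPM in lungs and 3331, 4175 and 6506 CPM in testicles. All organs overlapped, and none of the log2 fold changes of 0.33 ± 0.20 for eye over lung, -0.12 ± 0.20 for eye over testicle and -0.45 ± 0.20 for lung over testicle passed (adjusted p = 0.175, 0.602 and 0.0549). Lung over testicle did pass in 4 of 27 other settings: with identical names removed (-0.49) and without left lung 2 (-0.53), right lung 3 (-0.52) or left testicle 3 (-0.50).

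The 3p arm of the chromosome 9 locus, miR-125b-1-3p, had 53.7, 73.8 and 91.1 CPM in eyes, 18.4, 30.6 and 40.2 CPM in lungs and 74.7, 86.0 and 138 CPM in testicles. Lungs lay below both other organs with no overlap, and eyes and testicles overlapped. The log2 fold change was 1.31 ± 0.22 for eye over lung (adjusted p = 6.16e-05) and -1.64 ± 0.23 for lung over testicle (adjusted p = 5.29e-06). The second passed in all 27 settings and was -1.001 without right eye 2 and -1.08 with left lung 1 as reference. The first passed in 26, the exception being the fit without right eye 2 (0.55), and was 0.59 with left testicle 1 as reference. Eye over testicle was -0.33 ± 0.22 and did not pass, but was called in 6 of 27 other settings, at -0.63 with the 2 organs alone and at -0.58 to -0.54 without any one of left and right lung 1 and 2 or right testicle 3.

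The 3p arm of the chromosome 16 locus, miR-125b-2-3p, was also lowest in lung. It is no member but comes from the paralogous hairpin. This arm had 33.7, 37.6 and 45.0 CPM in eyes, 8.88, 14.6 and 20.6 CPM in lungs and 25.8, 34.1 and 43.3 CPM in testicles. Lungs lay below both other organs on this scale. On unscaled CPM lungs (up to 25.1) and testicles (down to 20.1) overlapped. Eye over lung was 1.41 ± 0.20 on the log2 scale (adjusted p = 6.69e-06) and lung over testicle -1.25 ± 0.20 (adjusted p = 2.74e-05), both passing in all 27 settings, with 0.71 and -0.62 without right eye 2, 0.73 for eye over lung with left testicle 1 as reference and -0.66 and -0.72 for lung over testicle with left lung 1 and left testicle 1. Its eye over testicle difference was called in 1 setting, at 0.67 with left lung 1 as reference. The ratio of the 3p arms of the 2 loci did not pass between any 2 organs.

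The balance of the 5p and 3p arms of miR-125b therefore differed between lung and each of the other organs. The 5p count was 31.9, 59.3 and 65.5 times the miR-125b-1-3p count in eyes, 69.5, 123 and 161 times in lungs and 31.6, 46.3 and 80.3 times in testicles (lowest, median, highest). All lung libraries lay above all eye libraries. The difference in log2 ratio was -1.01 for eye minus lung (adjusted p = 0.0139, exact permutation test) and 1.22 for lung minus testicle (adjusted p = 0.0225, exact permutation test), each passing in all 19 alternatives. Eye minus testicle was 0.21 and did not pass (adjusted p = 0.519, exact permutation test). The 5p count includes the chromosome 16 locus and the 3p count does not.

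The 5p arm of miR-125a had 1162, 1376 and 1711 CPM in eyes, 1059.75, 1300.4 and 1663 CPM in lungs and 929, 1035 and 1213 CPM in testicles. The ranges of all 3 organs overlapped on this scale. On unscaled CPM every testicle library lay below every eye and lung library. Eye over testicle was 0.40 ± 0.14 (adjusted p = 0.0175) and lung over testicle 0.33 ± 0.14 (adjusted p = 0.0452), which passed in 15 and 18 of the 27 settings. The first, at 0.16 to 0.35, no longer passed without any one of left eye 3, right eye 2 and 3, left and right lung 1 and 2 or right testicle 1 and 3, nor with left testicle 1 as reference (0.25), no filter (0.34) or the 2 organs alone (0.11). The second, at 0.30 to 0.36, no longer passed without left or right lung 2 or any one testicle library but left testicle 3, nor with no filter (0.35) or identical names removed (0.29), and was 0.96 without right eye 2. Both were larger with left lung 1 as reference (0.88 and 0.89) and with library sizes alone (0.68 and 0.73), and the second also with left testicle 1 as reference (0.86), the 2 organs alone (0.70), RLE or DESeq2 (0.57 each). Eye over lung was 0.07 ± 0.14, did not pass, and was called lower at -0.60 with left testicle 1 as reference and at -0.66 without right eye 2. Against its paralog, the miR-125a-5p count was 0.225, 0.363 and 0.488 times that of miR-125b-5p in eyes, 0.314, 0.394 and 0.574 times in lungs and 0.143, 0.256 and 0.325 times in testicles. Lung minus testicle was 0.79 on the log2 scale (adjusted p = 0.0177, exact permutation test) and passed in all 19 alternatives.

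Of the remaining 3p arms, miR-125a-3p had 21.3, 29.2 and 31.5 CPM in eyes, 23.9, 44.9 and 51.9 CPM in lungs and 12.9, 30.5 and 36.1 CPM in testicles, with all organs overlapping. None of its comparisons passed (adjusted p = 0.0683, 0.941 and 0.0695), but the first and last were near the threshold, with log2 fold changes of -0.49 ± 0.22 for eye over lung and 0.47 ± 0.23 for lung over testicle. Eye over lung was called in 14 of 27 other settings, at -1.18 to -0.51: with RLE, library sizes alone, either other TMM reference or DESeq2, and without right eye 2 or 3, left lung 1 or 2, right lung 1 or 2, left testicle 1, or right testicle 1 or 3. Lung over testicle was called in 9, at 0.57 to 1.11: with those 5 scalings and tools or the 2 organs alone, and without right eye 2, right lung 1 or left testicle 2. Eye over testicle was called in 1, at 0.51 with left lung 1 as reference. The 5p over 3p log2 ratio of miR-125a was 0.53 higher in eye than in lung (adjusted p = 0.0487, exact permutation test), and this passed in 11 of 19 alternatives. It no longer passed, at 0.43 to 0.56, without any one of left eye 2 and 3, right eye 2 and 3, left lung 1, 2 and 3 or right lung 2.

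The 3p arm of miR-99a had 18.6, 24.6 and 25.3 CPM in eyes, 3.47, 43.6 and 49.9 CPM in lungs and 15.0, 23.7 and 38.0 CPM in testicles. A single library set the low end of miR-99a-3p in lung. Right lung 1 held 9 counts, or 3.47 CPM of its total (95% exact binomial interval 1.58 to 6.58, counting error only). The other 5 lungs had 38.6 to 49.9 CPM of this arm. No comparison of its level passed with all libraries at the scaling used here. Eye over lung was -0.63 ± 0.39 and was called in 4 of 27 other settings, at -1.09 without right lung 1, -1.35 without right eye 2, -1.31 with left testicle 1 as reference and -0.77 with DESeq2. Lung over testicle was 0.52 ± 0.39 and was called in 4, at 0.79 without right lung 1, 1.15 without right eye 2, and 1.12 and 1.05 with left lung 1 and left testicle 1 as reference. Its 5p over 3p log2 ratio was 10.28 ± 0.22 in eyes, 9.97 ± 1.58 in lungs and 10.72 ± 0.54 in testicles (SD, 6 libraries each), and no organ pair passed. Without right lung 1, eye minus lung was 0.95 and lung minus testicle -1.39, and both passed.

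**Figure D4:**
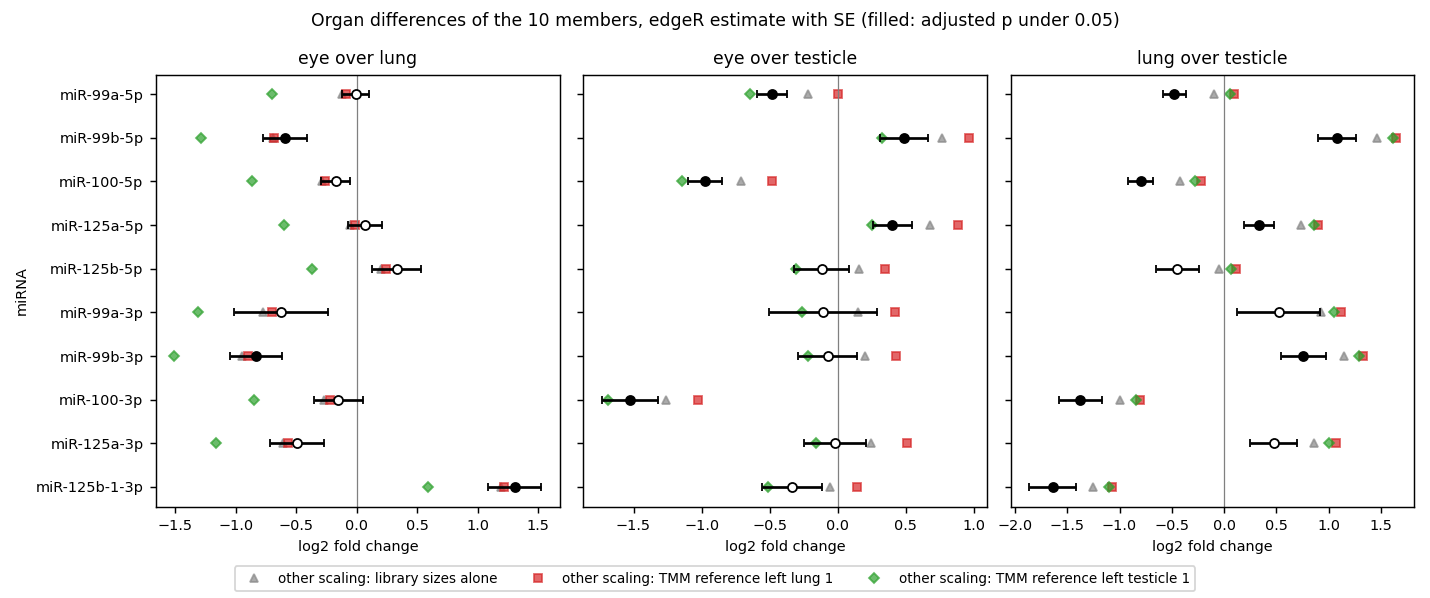
Log2 fold changes of the 10 members (horizontal axes) in the 3 organ comparisons, as edgeR estimates with 1 SE in black, filled where the adjusted p was under 0.05, beside the estimates under 3 other scalings. For miR-99a-5p the lung over testicle estimate of -0.48 stands beside 0.10 and 0.055 with a lung or a testicle library as TMM reference, while miR-99b-5p and miR-125b-1-3p keep their sign in that panel.

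Neighbours within a cluster differed in their organ profiles in several comparisons. Among the 7 cluster partners (the let-7 arms of the 3 clusters and miR-125b-2-3p), 4 passed in each comparison (57.1%, against 59.8%, 79.3% and 76.5% of all miRNAs), 3 of them higher and 1 lower in eye over lung and 2 higher and 2 lower in each of the other comparisons. On chromosome 17, let-7e-5p had medians of 5440.4 CPM in eyes, 4770.0 CPM in lungs and 2371 CPM in testicles. Eyes and lungs overlapped and both lay above testicles. Log2 fold changes were 1.24 ± 0.18 for eye over testicle (adjusted p = 7.63e-06) and 1.08 ± 0.18 for lung over testicle (adjusted p = 3.97e-05), both in all 27 settings, with 1.71 for lung over testicle without right eye 2 and 1.65 with left lung 1 as reference.

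The ratio of each neighbour to let-7e-5p differed between some organs and not others. The count of miR-99b-5p was 1.89, 2.51 and 3.61 times that of let-7e-5p in eyes, 2.52, 4.43 and 6.10 times in lungs and 3.15, 3.65 and 7.44 times in testicles. Eye minus lung was -0.70 on the log2 scale (adjusted p = 0.0487) and eye minus testicle -0.75 (adjusted p = 0.0278), both by exact permutation tests, and they passed in 10 and 15 of 19 alternatives. The first no longer passed without any one eye library but right eye 1, or any one lung library but left and right lung 3 (-0.72 to -0.58), and the second without left eye 2 or 3 or right eye 2 or 3 (-0.77 to -0.66). Lung minus testicle was -0.05 (adjusted p = 0.904, exact permutation test). The count of miR-125a-5p was 0.205, 0.254 and 0.358 times that of let-7e-5p in eyes, 0.179, 0.275 and 0.417 times in lungs and 0.323, 0.443 and 0.849 times in testicles. Eye minus testicle was -0.86 (adjusted p = 0.0177, exact permutation test) and passed in all 19. Eye minus lung was -0.09 (adjusted p = 0.801) and lung minus testicle -0.77 (adjusted p = 0.0708) by the same exact permutation test, and neither passed. Between the ends of this cluster, the log2 ratio of miR-99b-5p over miR-125a-5p was 3.27 ± 0.27 in eyes, 3.88 ± 0.51 in lungs and 3.16 ± 0.20 in testicles (SD, 6 libraries each). Lung minus testicle was 0.72, with no overlap (adjusted p = 0.0139, exact permutation test, all 19 alternatives).

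On chromosome 16, let-7c-5p, which is also encoded on chromosome 15, lay close to miR-99a-5p. The miR-99a-5p count was 0.933, 1.03 and 1.32 times that of let-7c-5p in eyes, 0.697, 0.849 and 0.961 times in lungs and 1.02, 1.18 and 1.94 times in testicles. All lungs were below all testicles. Eye minus lung was 0.34 (adjusted p = 0.0177) and lung minus testicle -0.57 (adjusted p = 0.0139) on the log2 scale, by exact permutation tests, each in all 19 alternatives. The ratio of miR-99a-5p to miR-125b-5p, whose count also includes the chromosome 9 locus, passed between no organs. Its adjusted p was 0.316 for eye against lung, 0.242 for eye against testicle and 0.932 for lung against testicle (exact permutation tests). The locus-specific let-7c-1-3p was rare, with medians of 6.02 CPM in eyes, 2.54 CPM in lungs and 10.7 CPM in testicles. Its log2 fold changes were 1.02 ± 0.32 for eye over lung (adjusted p = 0.0109), -0.85 ± 0.31 for eye over testicle (adjusted p = 0.0187) and -1.87 ± 0.33 for lung over testicle (adjusted p = 6.53e-05). The last passed in all 27 settings. The others passed in 22 and 25, and eye over lung was 0.33 without right eye 2, 0.69 without right eye 3, 0.79 without left lung 2 and 0.64 without right lung 1, and 0.36 with left testicle 1 as reference. Eye over testicle did not pass with library sizes alone (-0.58) or left lung 1 as reference (-0.35).

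On chromosome 9, miR-100-5p over miR-125b-5p had a log2 ratio of 0.61 ± 0.32 in eyes, 1.10 ± 0.45 in lungs and 1.46 ± 0.44 in testicles (SD, 6 libraries each). Eye minus testicle was -0.85 (adjusted p = 0.0225, exact permutation test, all 19 alternatives). Eye minus lung and lung minus testicle did not pass (adjusted p = 0.117 and 0.304, exact permutation tests). The miR-125b-5p count also includes the chromosome 16 locus, so this ratio is not confined to the cluster. The neighbour let-7a-5p is also encoded on chromosome 13. In edgeR its eye over lung log2 fold change was -0.38 ± 0.16 (adjusted p = 0.0424), passing in 19 of 27 settings. Eye over testicle was -0.58 ± 0.16 (adjusted p = 0.00281), passing in 26. Lung over testicle was -0.19 ± 0.16, did not pass, and was called at 0.45 without right eye 2. The arm let-7a-2-3p was called between no organs in any setting. Across the 15 ratios and 3 organ pairs, 16 of 45 comparisons passed. These were 6 of 9 between family members, 7 of 18 within clusters, 3 of 15 between arms and 0 of 3 between the 2 miR-125b loci. Several of those within clusters, passing and not, use miR-125b-5p or let-7c-5p, whose counts also include a locus outside the cluster. Outside the clusters, miR-351-5p on chromosome X carries the miR-125 seed and had 27.6 to 34.5 CPM in eyes, 294 to 547 in lungs and 134 to 319 in testicles.

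Left and right organs were then compared, as the study's design sets them out. No member passed in eye, lung or testicle, over all organs, or in the test of whether the side difference varied between organs. The same held for all miRNAs tested, 0% in edgeR among 487 in eye, 430 in lung, 464 in testicle and 642 in each of the 2 fits over all organs. At an unadjusted p under 0.05 there were 18, 1, 36, 37 and 21 miRNAs in that order, with 0, 0, 1, 1 and 1 members. DESeq2 called 1, 0, 1, 0 and 0 miRNAs, none a member. The log2 differences of left over right among the 10 members ran from -0.16 to 0.31 in eye, -0.89 to 0.74 in lung and -0.67 to 0.57 in testicle.

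The member behind each of those unadjusted p-values was miR-100-3p. In testicle it had 94.4, 108 and 121 CPM on the left and 207, 167 and 181 CPM on the right. All 3 left libraries were below all 3 right ones. Such a separation of 3 against 3 libraries gives no p below 0.1 in an exact permutation test. The log2 difference of left over right was -0.59 ± 0.16 (adjusted p = 0.575). Lung had 46.5, 43.1 and 35.2 CPM on the left against 94.97, 57.3 and 61.0 CPM on the right, again without overlap, with a difference of -0.89 ± 0.41 (adjusted p = 0.908). Eye had 78.2, 47.9 and 36.6 CPM on the left and 41.0, 49.6 and 41.7 CPM on the right, which overlap, with 0.31 ± 0.32 (adjusted p = 0.982). Over all organs the difference was -0.42 ± 0.20 (adjusted p = 0.762), and the test of varying side differences gave an adjusted p of 1. The abundant miR-99a-5p differed between sides by -0.16 ± 0.12 in eye, -0.18 ± 0.25 in lung and 0.01 ± 0.12 in testicle (log2, SE).

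The spread between libraries of an organ was narrowest for miR-99a-5p and widest for miR-125b-5p among the 5 listed 5p arms. As unscaled CPM of the library total, miR-99a-5p had a coefficient of variation of 3.27% in eyes, 6.07% in lungs and 4.64% in testicles. It ranked 4 of 91, 4 of 86 and 1 of 97, counted from the steadiest, among tested miRNAs averaging at least 1000 CPM. In contrast, miR-125b-5p had 26.9%, 29.7% and 34.9%, ranking 79, 57 and 84 on the same lists, although counting error alone gives 0.968%, 1.01% and 1.36%. The other arms lay between: miR-99b-5p had 7.91%, 19.5% and 11.3%, miR-100-5p 9.85%, 7.66% and 8.87%, and miR-125a-5p 22.0%, 22.1% and 10.4%. The medians of those lists were 13.3%, 22.3% and 18.3%. Left and right libraries of each organ lie at both the low and the high end for miR-125b-5p in eye and lung. In testicle, left testicle 1 is highest at 6506 TMM-scaled CPM, the next being 4366. Left over right of miR-125b-5p in testicle was 0.57 ± 0.25 on the log2 scale (adjusted p = 0.575, edgeR). As shares of all counts, the summed miR-125 5p arms were 0.458% to 0.727% in left testicles and 0.343% to 0.402% in right ones.

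**Figure D5:**
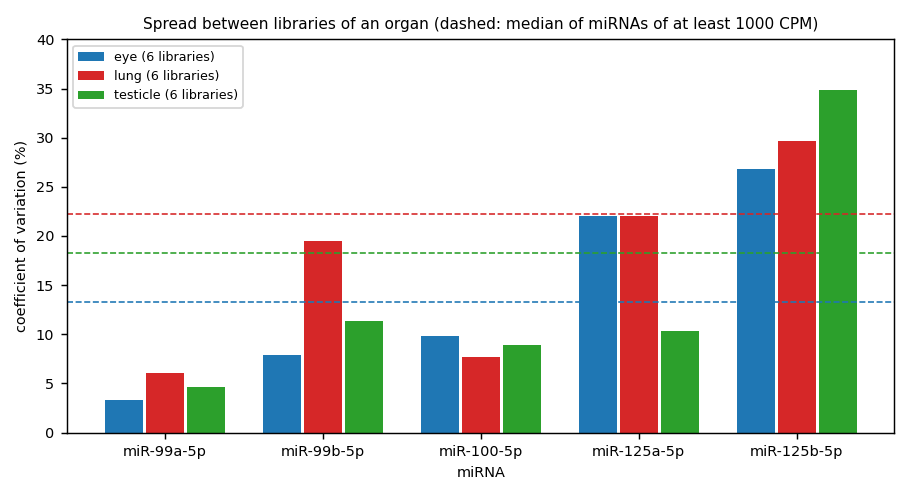
Coefficient of variation (percent, from 0) of the 5 listed 5p arms over the 6 libraries of each organ, on unscaled CPM, with dashed lines at the median of tested miRNAs of at least 1000 CPM in that organ. The miR-99a-5p bars reach 3.27% to 6.07% and the miR-125b-5p bars 26.9% to 34.9%.

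Over the 18 libraries, the miRNAs whose log2 levels ran most nearly parallel to each 5p arm were found by Pearson r, as a description in which organ differences and scaling are shared. For miR-99a-5p they were miR-203-5p (r = 0.932) and miR-191-5p (r = 0.908). For miR-99b-5p they were miR-1843a-3p (r = 0.952) and miR-23b-5p (r = 0.922). The testicle-high miR-100-5p ran with miR-669b-5p (r = 0.960) and miR-467c-5p (r = 0.959). The closest to miR-125a-5p, miR-330-3p (r = 0.794), and to miR-125b-5p, miR-324-5p (r = 0.694), were less alike.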

How the data were processed

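Per the labels' protocols, RNA came from a spin-column extraction and BGI-500 library preparation. The submitters' processing notes give the build as GRCm38.p6. Aligner, counting program, rules on multi-mapping, mismatches and strand, and any molecular identifiers were not given in the sources used here. Raw counts were deposited, whole numbers with no normalization, in 1 table of mature miRNAs per library. Of the 1431 names, 488 had under 10 counts in total and were not compared with each other. Among the rest, 22 in 10 sets had identical counts in every library. The members, lists and tests were chosen with earlier results of these data known.

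Low counts were filtered with filterByExpr by group and libraries scaled by TMM. Organs were compared in edgeR 4.0.16 (R 4.3.3) with its quasi-likelihood test on all 18 libraries and 6 groups, sides within each organ's 6 libraries, and sides over all organs with organ as a term. Benjamini-Hochberg adjustment ran over all tested miRNAs, at a threshold of 0.05. DESeq2 1.42.0 was an alternative. Log2 ratios, with 0.5 added to each count, and shares of the total were tested by exact two-sided permutation (scipy 1.17.1) of 6 against 6 libraries (924 splits), adjusted over 45 ratio tests and 6 share tests. The edgeR and permutation tests were also run on simulated data. The text names all 10 members, 7 cluster partners, up to 2 miRNAs nearest in profile to each 5p arm and some of the organ markers looked at. Names and sequences came from RefSeq, positions of host genes from the GENCODE annotation of the same build. Replicate pairs of a group differed by more than counting noise, so none was merged. Intervals cover counting error only. A count of 3, the limit that a count of 0 allows, equals 1.12 to 1.22 CPM in eyes, 1.08 to 1.18 in lungs and 1.58 to 3.15 in testicles.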

Additional observations from a re-analysis of the deposited data

Results flagged for a closer look

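Screened were 81 sets of 6 libraries, each an organ's values of a member, ratio or sum. In 9 of them the gap from the highest or lowest library to the next exceeded Dixon's 95% limit for its share of the range. Chance gives about 1 in 20. In eyes, left eye 1 stood apart in 3 of them. It had 18.6 CPM of miR-99a-3p against 23.0 to 25.3 in the other eyes, 78.2 CPM of miR-100-3p against 36.6 to 49.6, and a log2 ratio of miR-125b-5p over miR-125b-1-3p of 4.996 against 5.76 to 6.03.

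In lungs, right lung 1 stood apart in 3. Its miR-99a-3p was at 3.47 CPM against 38.6 to 49.9 in the other lungs. The log2 ratio of miR-99a-5p over miR-99a-3p was 13.18 there against 8.997 to 9.56. For miR-99b-5p over miR-99b-3p it was 7.66 against 6.72 to 6.91.

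In testicles, left testicle 1 had 6506 CPM of miR-125b-5p against 3331 to 4366 in the others, and a log2 ratio of miR-99a-5p over let-7c-5p of 0.96 against 0.03 to 0.33. Right testicle 1 had 138 CPM of miR-125b-1-3p against 74.7 to 97.2.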

How the results depend on the processing

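The 3 members called in eye against lung became 5 with RLE scaling, 5 with library sizes alone, 9 with left testicle 1 as TMM reference and 6 with DESeq2, and were 3 to 8 when each library was left out in turn (8 without right eye 2). The 5 called in eye against testicle became 3 with left testicle 1 as reference and 3 with no filter, and 3 to 5 leaving out libraries. In lung against testicle leaving out libraries gave 6 to 9, against 7. Calls of that comparison over all miRNAs split 176 higher and 315 lower, and 233 and 267 with left lung 1 as reference, and those of eye against lung 227 and 157, and 196 and 262 with left testicle 1. Directions turned, with a call on at least 1 side, in eye over lung with left testicle 1 as reference (miR-125a-5p -0.60, let-7e-5p -0.50, let-7e-3p -0.041), in eye over testicle with left lung 1 (miR-99a-5p 0.0041, miR-125a-3p 0.51), and in lung over testicle for miR-99a-5p with left lung 1 (0.10) or left testicle 1 (0.055). Leaving out libraries gave -0.66 to 0.12 for miR-125a-5p, -0.55 to 0.26 for let-7e-5p and -0.13 to 0.68 for let-7e-3p in eye over lung, and -0.53 to 0.16 for miR-99a-5p and -0.27 to 0.45 for let-7a-5p in lung over testicle. The cause was not tested. Between sides, no filter called 6 miRNAs in eye, 1 in lung and 7 in the test of varying side differences, DESeq2 called 1 in eye and 1 in testicle, and leaving out libraries 0 to 1 in eye, testicle, over all organs and in the test of varying side differences; none was a member. The miR-99/100 share of counts in lung minus testicle was 0.69 points and no longer passed with identical names removed, and ran from 0.81 to 1.11 leaving out libraries, with -0.38 to -0.26 for eye minus testicle. Averaging left and right of a number left 0 ratio comparisons passing, since 3 against 3 cannot go below p = 0.1 in an exact permutation test; leaving out libraries gave 13 to 20, against 16.

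Whether same-numbered left and right libraries of an organ pair could not be told from the data: their deviations correlated at r over 0.1 in 4 of 9 pairs (-0.42 to 0.40, median 0.02), against 3 of 18 pairs with unlike numbers. With that number as a replicate block, 3, 5 and 7 members were called in the 3 organ comparisons, as without it, and 383, 509 and 490 miRNAs, against 384, 509 and 491. Between sides the replicate block called 0 miRNAs, and gave 16 in eye, 21 in lung and 81 in testicle at an unadjusted p under 0.05, against 18, 1 and 36 without it. Depth limits the 3p arms most, the thinnest values being 9 counts of miR-99a-3p and 12 of miR-125a-3p.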
